A study of Mus musculus with 12 samples.

Results

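The 71 genes described here carry the names of mitochondrial ribosomal proteins. They were chosen by name, as the genes whose symbol begins with Mrpl or Mrps (named for the large and the small subunit) followed by a number and that had a probe set annotated to a single gene. They make up 71 of the 22180 genes tested, each represented by the brightest such probe set. All but Mrps36, whose product is now known as a component of the 2-oxoglutarate dehydrogenase complex, encode proteins of the ribosome, and Mrps36 is included in each count over the 71. Mitochondria keep a small genome of their own, and the few proteins it encodes, all core subunits of the respiratory chain and ATP synthase, are made by a dedicated ribosome. The ribosomal RNAs of that ribosome come from mitochondrial DNA, whereas all of its proteins are encoded in the nucleus, made in the cytosol and imported. Brown and beige fat cells are rich in mitochondria, and the PPARγ ligand rosiglitazone is used to push cultured white fat precursors towards that state.

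Microarrays were run on adipocytes differentiated in culture from mouse inguinal adipose precursor cells, in 4 groups of 3 arrays. All 12 arrays came from cells of 1 genotype, R26Cre/Prdm16floxEx9, in which a Cre at the Rosa26 locus, a site active in most cell types, can delete exon 9 of Prdm16 (a transcriptional regulator of brown and beige fat). In growth phase the cells received either 1 uM 4-hydroxy-tamoxifen (groups 4OHT and 4OHT_Rosi) or ethanol (groups EtOH and EtOH_Rosi) for 3 days, so the ethanol controls carry the floxed allele and the Cre too. All groups were differentiated in medium with 1 nM T3, 20 nM insulin, 1 uM dexamethasone, indomethacin at 125 nM, isobutylmethylxanthine at 0.5 uM and FBS at 10%. The sample labels give 1 uM rosiglitazone for EtOH_Rosi and 4OHT_Rosi alone, although a protocol text shared by all samples also mentions it. No group separates an effect of 4-hydroxy-tamoxifen itself from that of the deletion. Nothing in the labels says that the 3 replicates were separate cultures, so p-values measure only the spread between these arrays.

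Values are log2 probe set levels, without units, that can be compared between arrays for 1 gene but not between genes. Array medians lay between 5.97 and 6.05. Correlations of levels were 0.996 to 0.998 between arrays of 1 group and 0.981 to 0.996 between arrays of different groups. The first principal component (60.9% of the variance) separated the arrays with and without rosiglitazone, the second (14.3%) separated ethanol from 4-hydroxy-tamoxifen, and 4OHT_Rosi 3 stood apart on the third (5.67%). The single Prdm16 probe set was lower after 4-hydroxy-tamoxifen with rosiglitazone, by a log2 difference of -0.71 ± 0.10 (SE, adjusted p = 0.000646), and differed by -0.17 ± 0.10 without it (adjusted p = 0.455). The sources used here do not say which exons that probe set covers, so it need not report the deleted exon.

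Rosiglitazone was the treatment with which the mitochondrial ribosomal protein genes changed most widely. Of the 71 genes, 61 were higher with rosiglitazone after ethanol and 55 after 4-hydroxy-tamoxifen, and none was lower in either setting. The test was limma's moderated test over all 22180 genes, with calls at a Benjamini-Hochberg adjusted p under 0.05. Over all genes tested, 14.4% were called higher and 16.3% lower after ethanol, and 11.6% higher and 12.1% lower after 4-hydroxy-tamoxifen. The median log2 fold change of the 71 genes was 0.390 after ethanol (all genes 0.013) and 0.343 after 4-hydroxy-tamoxifen (all genes 0.000). Single genes ranged from -0.22 to 0.89 and from -0.12 to 0.88. The estimate was positive for 68 of the 71 in each setting. Over all 22180 genes it was positive for 11882 after ethanol and for 11054 after 4-hydroxy-tamoxifen.

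The members are mostly bright probe sets, and calls were more frequent among brighter genes. When all genes were ordered by mean level and cut into 4 bins of equal size, 47 of the members fell in the brightest bin, 21 in the next, 3 in the one after that and 0 in the dimmest. In the brightest bin, 30.46% of genes were higher and 26.85% lower with rosiglitazone after ethanol, and 25.79% were higher and 21.66% lower after 4-hydroxy-tamoxifen. In the next bin 18.72% were higher and 28.04% lower after ethanol, the latter above the share in the brightest bin. This split by level was chosen after the calls had been seen.

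The shift was present in every array. The median deviation of the 71 genes from their own 12-array means was -0.13, -0.24 and -0.26 in the EtOH arrays and -0.16, -0.15 and -0.22 in the 4OHT arrays. It was 0.16, 0.23 and 0.27 in the EtOH_Rosi arrays and 0.15, 0.16 and 0.18 in the 4OHT_Rosi arrays. The arrays with rosiglitazone therefore did not overlap those without it, and EtOH 1 lay nearer to 0 than the other EtOH arrays. The median over all genes stayed between -0.0125 and 0.0042 on every array. In single genes, 56 of the 71 had all 6 arrays with rosiglitazone above all 6 arrays without it, a pattern seen in 9.87% of all genes tested.

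**Figure D1:**
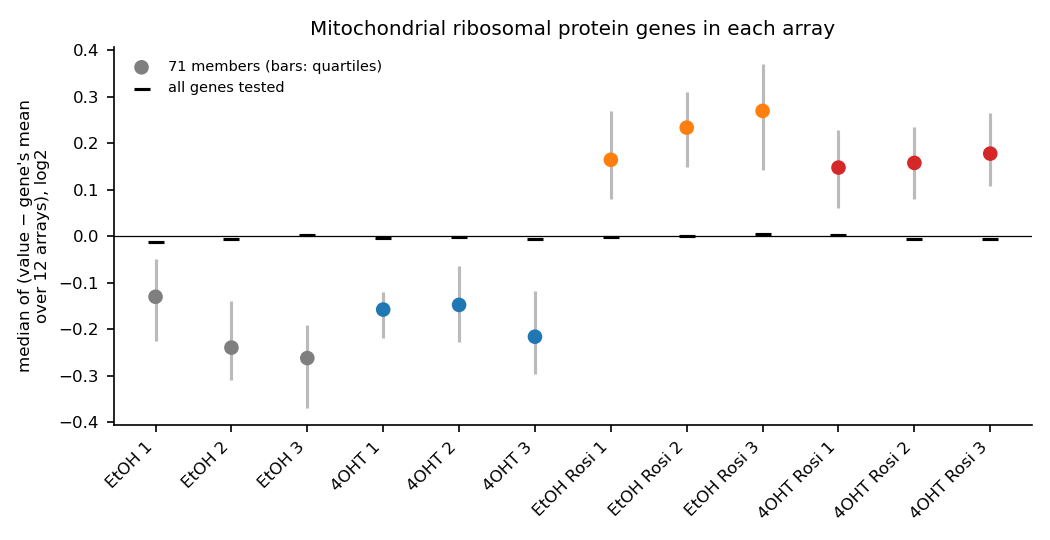
For each of the 12 arrays, points show the median over the 71 mitochondrial ribosomal protein genes of the log2 value minus that gene's mean over the 12 arrays, bars the quartiles over genes, and short black marks the same median over all genes tested. The points lie between -0.26 and -0.13 in the 6 arrays without rosiglitazone and between 0.15 and 0.27 in the 6 arrays with it.

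The largest rises after ethanol were those of Mrpl1, Mrps27 and Mrps35, followed by Mrpl47 and Mrpl55 at the same value. Mrpl1 encodes the protein of the L1 stalk, a mobile arm beside the site where spent tRNA leaves the ribosome. It read 8.26, 8.09 and 8.12 in EtOH, 8.29, 8.36 and 8.40 in 4OHT, 9.02, 9.01 and 9.12 in EtOH_Rosi, and 9.17, 9.04 and 9.02 in 4OHT_Rosi. All 6 rosiglitazone arrays were higher than the other arrays by a wide margin, and the 2 rosiglitazone groups overlapped. The log2 fold change was 0.89 ± 0.07 (SE, adjusted p = 4.01e-07) after ethanol, a ratio of 1.86, and 0.73 ± 0.07 (adjusted p = 3.48e-06) after 4-hydroxy-tamoxifen, a ratio of 1.66.

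Mrps27 encodes an RNA-binding pentatricopeptide repeat protein of the small subunit. Its values were 8.54, 8.32 and 8.16 in EtOH, 8.48, 8.33 and 8.48 in 4OHT, 9.16, 9.20 and 9.32 in EtOH_Rosi, and 9.03, 9.19 and 9.09 in 4OHT_Rosi. The groups with and without rosiglitazone did not overlap, and the EtOH arrays were the most spread. The rises were 0.89 ± 0.09 (adjusted p = 5.17e-06) and 0.67 ± 0.09 (adjusted p = 8.64e-05) on the log2 scale. Mrps35, another small subunit protein without a bacterial counterpart, read 8.51, 8.46 and 8.27 in EtOH against 9.19, 9.39 and 9.30 in EtOH_Rosi, and 8.53, 8.47 and 8.60 in 4OHT against 9.24, 9.16 and 9.22 in 4OHT_Rosi. It rose by 0.88 ± 0.07 (adjusted p = 1.1e-06) and 0.67 ± 0.07 (adjusted p = 1.7e-05). Mrpl55, of the large subunit, read 8.54, 8.51 and 8.23 in EtOH against 9.20, 9.21 and 9.32 in EtOH_Rosi, and 8.56, 8.60 and 8.40 in 4OHT against 9.02, 9.05 and 9.08 in 4OHT_Rosi. Its groups were likewise fully apart, with rises of 0.82 ± 0.08 (adjusted p = 5.27e-06) and 0.53 ± 0.08 (adjusted p = 0.000322). Mrpl47, a large subunit protein shared with bacteria, read 7.62, 7.50 and 7.47 in EtOH against 8.32, 8.37 and 8.35 in EtOH_Rosi, and 7.64, 7.65 and 7.77 in 4OHT against 8.40, 8.30 and 8.31 in 4OHT_Rosi. It rose by 0.82 ± 0.06 (adjusted p = 4.34e-07) and 0.65 ± 0.06 (adjusted p = 4.54e-06).

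After 4-hydroxy-tamoxifen the order changed, with Mrps22 and Mrpl20 ahead of Mrpl1 and Mrpl51. Mrps22 encodes a small subunit protein found only in mitochondrial ribosomes, and inherited defects of the human gene cause mitochondrial disease. It read 9.15, 9.04 and 9.02 in EtOH, 9.24, 9.13 and 9.24 in 4OHT, 9.91, 9.83 and 9.77 in EtOH_Rosi, and 10.16, 10.05 and 10.04 in 4OHT_Rosi. The 4OHT_Rosi arrays were the highest and did not overlap EtOH_Rosi, while EtOH and 4OHT met at 9.13 to 9.15. Its rise was 0.88 ± 0.06 (adjusted p = 4.28e-07) after 4-hydroxy-tamoxifen and 0.77 ± 0.06 (adjusted p = 9.93e-07) after ethanol. Mrpl20, whose bacterial counterpart binds ribosomal RNA early in assembly of the large subunit, read 9.01, 8.96 and 8.80 in EtOH, 9.08, 9.12 and 8.99 in 4OHT, 9.57, 9.67 and 9.57 in EtOH_Rosi, and 9.90, 9.80 and 9.91 in 4OHT_Rosi. It showed the same order of groups, with rises of 0.81 ± 0.07 (adjusted p = 1.63e-06) after 4-hydroxy-tamoxifen and 0.68 ± 0.07 (adjusted p = 4.58e-06) after ethanol. Mrpl51, a large subunit protein without a bacterial counterpart, read 8.81, 8.66 and 8.72 in EtOH, 8.97, 8.87 and 8.91 in 4OHT, 9.45, 9.47 and 9.55 in EtOH_Rosi, and 9.69, 9.56 and 9.60 in 4OHT_Rosi. Its rises were 0.76 ± 0.06 (adjusted p = 7.87e-07) after ethanol and 0.70 ± 0.06 (adjusted p = 2.41e-06) after 4-hydroxy-tamoxifen.

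**Figure D2:**
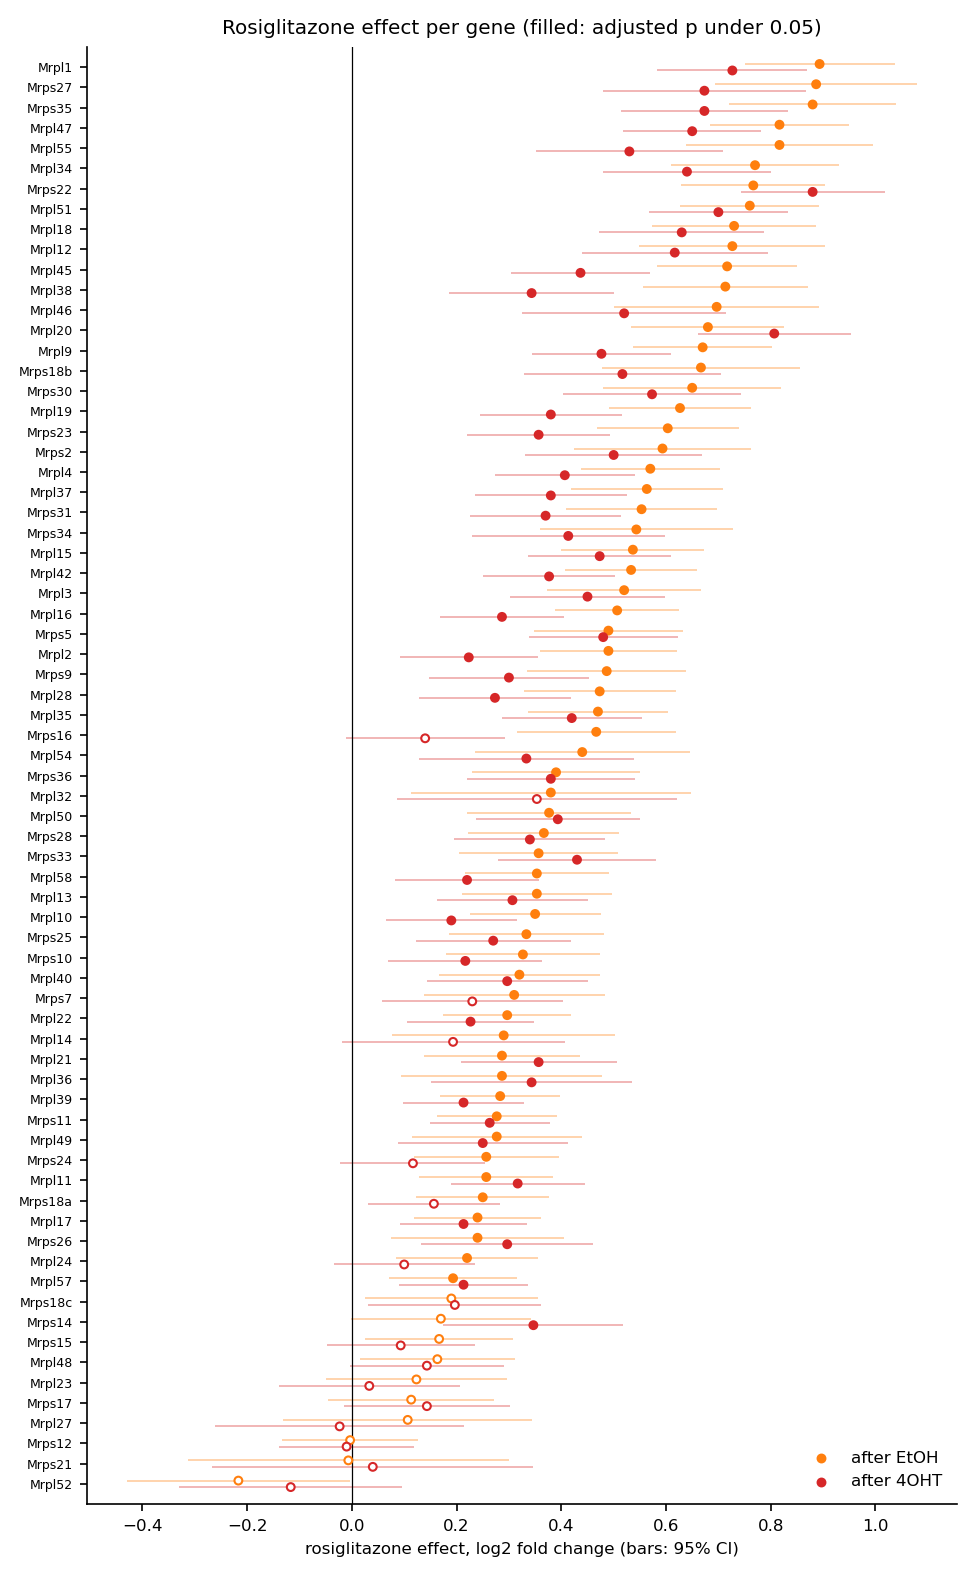
Log2 fold change with rosiglitazone of each of the 71 mitochondrial ribosomal protein genes, after ethanol (orange) and after 4-hydroxy-tamoxifen (red), with 95% confidence intervals from limma and filled points for adjusted p under 0.05. Genes are ordered by the effect after ethanol, from Mrpl1 at 0.89 to Mrpl52 at -0.22.

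Both rosiglitazone settings called 54 genes in common, 88.5% of the 61 and 98.2% of the 55. The settings share no array but share an estimate of the spread, so their calls are not independent. With 61 and 55 of the 71 genes called, most of this overlap was bound to occur. The overlap over all genes was not counted. After ethanol alone the test called Mrpl14, Mrpl24, Mrpl32, Mrps7, Mrps16, Mrps18a and Mrps24, and after 4-hydroxy-tamoxifen alone it called Mrps14. With all 12 arrays none of these 8 differences between settings passed the interaction test, so they mark which side of the threshold a gene fell on. Mrps14, a protein of the head of the small subunit, had a dim probe set, and its group means were 5.59 ± 0.17 (SD, n = 3) in EtOH_Rosi against 5.42 ± 0.03 in EtOH, and 5.54 ± 0.07 in 4OHT_Rosi against 5.20 ± 0.08 in 4OHT.

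The 9 genes called in neither setting were Mrpl23, Mrpl27, Mrpl48, Mrpl52, Mrps12, Mrps15, Mrps17, Mrps18c and Mrps21. Mrps12, whose protein sits at the decoding centre, was the flattest. It read 7.13, 7.19 and 7.25 in EtOH, 7.19, 7.10 and 7.23 in 4OHT, 7.15, 7.18 and 7.23 in EtOH_Rosi, and 7.09, 7.19 and 7.21 in 4OHT_Rosi, and all groups overlapped. Its difference with rosiglitazone after ethanol was 0.00 on the log2 scale, with a 95% interval of -0.13 to 0.13, and after 4-hydroxy-tamoxifen the interval was -0.14 to 0.12. Mrpl52, a large subunit protein specific to mitochondria, had the lowest estimate in both settings. It read 10.09, 10.10 and 10.19 in EtOH, 9.91, 10.02 and 9.75 in 4OHT, 9.93, 9.95 and 9.85 in EtOH_Rosi, and 9.58, 9.73 and 10.02 in 4OHT_Rosi. The EtOH arrays were the highest, but the differences with rosiglitazone of -0.22 ± 0.10 (adjusted p = 0.125) and -0.12 ± 0.10 (adjusted p = 0.472) were not called. The first was called when the fit held only the 2 groups (adjusted p = 0.0285) or left out 4OHT_Rosi 3 (0.0416). Some alternative fits called Mrps18c higher in both settings, and Mrps15 and Mrpl48 higher after ethanol. The intervals of Mrps21 (-0.31 to 0.30 after ethanol) and Mrpl27 (-0.13 to 0.34) were wide enough to include rises like those of many called genes.

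**Figure D3:**
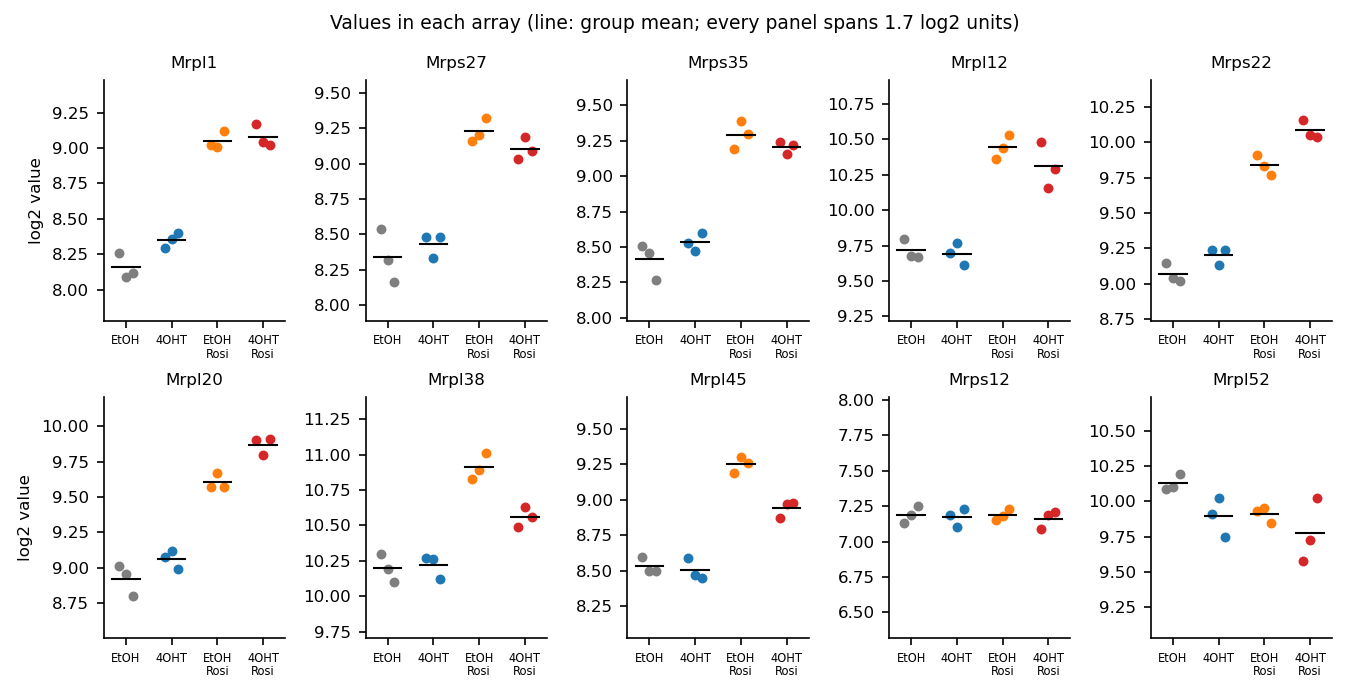
Log2 values in each of the 12 arrays for 10 of the mitochondrial ribosomal protein genes, with a line at each group mean and axes of equal span. Mrpl1, Mrps27, Mrps35, Mrpl12, Mrps22, Mrpl20, Mrpl38 and Mrpl45 stand higher in every rosiglitazone array than in any other array, whereas the groups of Mrps12 overlap and those of Mrpl52 run from 9.58 to 10.19.

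Upstream of several of these genes the DNA holds short motifs of factors known to drive nuclear genes for mitochondrial proteins. Not all strong risers have them. The promoters of Mrpl12, Mrpl45 and Mrpl47 held none of the motifs searched, and those of Mrpl1 and Mrpl55 held only SP1 letters. Stretches of 6 promoters are shown, chosen among those that hold ETS or NRF1 letters. They belong to strongly responding genes (Mrps27, Mrps22, Mrpl51, Mrpl9), to a smaller riser (Mrpl22) and to the gene with the lowest estimate (Mrpl52). They are RefSeq sequences of build GRCm38.p6 that end at the base before the annotated start, written 5′ to 3′ in the sense of transcription, and capitals mark the ETS, SP1 and NRF1 letters given in the next paragraph.
Mrps27: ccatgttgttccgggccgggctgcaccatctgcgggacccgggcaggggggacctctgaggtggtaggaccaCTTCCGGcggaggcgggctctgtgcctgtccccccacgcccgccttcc
Mrps22: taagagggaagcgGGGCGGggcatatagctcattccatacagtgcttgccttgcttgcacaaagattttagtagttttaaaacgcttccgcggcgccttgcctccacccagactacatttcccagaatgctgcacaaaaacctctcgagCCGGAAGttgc
Mrpl51: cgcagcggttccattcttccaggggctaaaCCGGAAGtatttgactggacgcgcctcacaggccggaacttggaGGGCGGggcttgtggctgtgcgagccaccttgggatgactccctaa
Mrpl52: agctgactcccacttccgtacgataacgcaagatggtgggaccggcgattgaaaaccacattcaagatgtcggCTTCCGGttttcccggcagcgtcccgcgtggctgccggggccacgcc
Mrpl9: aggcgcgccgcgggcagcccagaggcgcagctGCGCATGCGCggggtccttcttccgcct
Mrpl22: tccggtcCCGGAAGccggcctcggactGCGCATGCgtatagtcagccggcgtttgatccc
Their positions are chr13:99344666-99344785 (plus strand) for Mrps27, chr9:98601680-98601839 (minus strand) for Mrps22, chr6:125192080-125192199 (plus) for Mrpl51, chr14:54426789-54426908 (plus) for Mrpl52, chr3:94443276-94443335 (plus) for Mrpl9 and chr11:58171604-58171663 (plus) for Mrpl22. The ETS letters begin 48 bases before the start in Mrps27, 11 in Mrps22, 90 in Mrpl51, 47 in Mrpl52 and 53 in Mrpl22. In Mrpl9 the NRF1 letters occur on both strands, overlapping, from 28 and 26 bases before the start.

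Each motif was searched on both strands in windows that ran from 250 bases before to 50 after the start. Promoters were found for 62 of the 71 genes, 68 promoters in all, and the same search was run on all 32851 promoters of the table. The ETS letters CCGGAAG, a core bound by GABPA and its relatives, stood in 33.8% of the members' promoters and 8.86% of all promoters. The YY1 letters AAGATGGC stood in 17.6% against 2.75%, and the NRF1 letters GCATGCGC in 10.3% against 2.71%. The SP1 letters GGGCGG stood in 54.4% against 35.7%, and the E-box CACGTG in 10.3% against 7.15%. Over the promoters of the tested genes alone, the shares were 11.4% for ETS, 3.12% for YY1, 3.64% for NRF1, 46.6% for SP1 and 8.1% for the E-box. The ERR letters TCAAGGTCA were in 0 of the members' promoters and 0.423% of all, and the PPAR direct repeat in 0 and 0.0396%. These exact letters are so rare over all promoters that 0 of 68 cannot show whether the members have fewer of them. The letters of most of these motifs are rich in G and C, and base composition was not matched between the promoter sets.

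Of the genes with the ETS letters, 17 of 23 rose with rosiglitazone after ethanol, with a median log2 fold change of 0.30, and of those without, 35 of 39 rose, with a median of 0.39. For YY1 these figures were 11 of 12 with the letters (0.30) and 41 of 50 without (0.38). For NRF1 they were 7 of 7 (0.35) and 45 of 55 (0.38), and for SP1 25 of 32 (0.34) and 27 of 30 (0.42). For the E-box they were 4 of 5 (0.49) and 48 of 57 (0.36). These counts are descriptions. Mrpl52, shown above, holds the ETS letters without a called change.

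Both subunits took part. Of 45 large subunit genes, 41 rose with rosiglitazone after ethanol (median log2 fold change 0.470) and 37 after 4-hydroxy-tamoxifen (0.343). Of 25 small subunit genes, 19 rose after ethanol (0.357) and 17 after 4-hydroxy-tamoxifen (0.300). Grouped by descent, 43 genes encode proteins that bacterial ribosomes also have, and 35 of these rose after ethanol (0.367) and 30 after 4-hydroxy-tamoxifen (0.307). A further 27 encode proteins that mitochondrial ribosomes gained later, and 25 of these rose after ethanol (0.533) and 24 after 4-hydroxy-tamoxifen (0.370). No test was made between these groups. Mrps36 was counted in none of them. Subunits are those of the protein, so Mrps18a and Mrps30 count as large.

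Among proteins with known special roles, Mrpl12 belongs to the stalk that recruits translation factors and has been reported to bind the mitochondrial RNA polymerase. It read 9.80, 9.68 and 9.67 in EtOH and 9.70, 9.77 and 9.61 in 4OHT, against 10.36, 10.44 and 10.53 in EtOH_Rosi and 10.48, 10.16 and 10.29 in 4OHT_Rosi. Its rises of 0.73 ± 0.08 (adjusted p = 1.3e-05) and 0.62 ± 0.08 (adjusted p = 8.71e-05) were above those of the genes for its stalk partners. Mrpl10, to which Mrpl12 binds, rose by 0.35 ± 0.06 (adjusted p = 0.000327) and 0.19 ± 0.06 (adjusted p = 0.0293), and Mrpl11, at the base of the stalk, by 0.26 ± 0.06 (adjusted p = 0.0041) and 0.32 ± 0.06 (adjusted p = 0.00133). These differences between genes were not tested. Mrpl58, a peptidyl-tRNA hydrolase that frees stalled ribosomes, rose from 8.72 ± 0.06 (SD, n = 3) in EtOH to 9.07 ± 0.01 in EtOH_Rosi, and from 8.69 ± 0.07 in 4OHT to 8.91 ± 0.10 in 4OHT_Rosi (log2 0.35, adjusted p = 0.000648, and 0.22, adjusted p = 0.0224).

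The Mrps18 genes are paralogues whose products sit in different places, Mrps18a in the large subunit and the others in the small one. Mrps18b rose from 9.81 ± 0.03 (SD, n = 3) in EtOH to 10.47 ± 0.08 in EtOH_Rosi (log2 0.67, adjusted p = 4.6e-05) and from 9.79 ± 0.21 in 4OHT to 10.30 ± 0.06 in 4OHT_Rosi (0.52, adjusted p = 0.000611). Mrps18a rose by 0.25 ± 0.06 after ethanol (adjusted p = 0.0045) and differed by 0.16 ± 0.06 after 4-hydroxy-tamoxifen (adjusted p = 0.0726). Mrps18c differed by 0.19 ± 0.08 (adjusted p = 0.0808) and 0.20 ± 0.08 (adjusted p = 0.085). So 1 of the 3 paralogues was called in both settings and 1 in neither, and differences between the paralogues were not tested. With quantile normalization Mrps18c was called higher in both (adjusted p = 0.01885 and 0.0478). With array weights Mrps18a was also called after 4-hydroxy-tamoxifen (adjusted p = 0.0388). Mrps30, a large subunit protein despite its name, rose from 8.87 ± 0.12 (SD, n = 3) to 9.52 ± 0.12 after ethanol (0.65, adjusted p = 2.26e-05) and from 8.94 ± 0.04 to 9.52 ± 0.09 after 4-hydroxy-tamoxifen (0.57, adjusted p = 0.00011). Mrps36 rose by 0.39 ± 0.07 (adjusted p = 0.000985) and 0.38 ± 0.07 (adjusted p = 0.00178).

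Of the 9 members with a second probe set, none had both probe sets called in opposite directions. The second probe set of Mrps16, a small subunit protein shared with bacteria, rose by 0.82 ± 0.11 after ethanol and 0.61 ± 0.11 after 4-hydroxy-tamoxifen (adjusted p = 5.85e-05 and 0.00109 over all probe sets of a single gene), whereas the brighter one gave 0.47 and 0.14. The dimmer probe sets of Mrpl47 and Mrps18b were also called in both settings, and those of Mrpl10, Mrpl12, Mrpl36, Mrps5, Mrps17 and Mrps18c in neither. Mrpl30, Mrpl33, Mrpl41, Mrpl43, Mrpl44, Mrpl53 and Mrps6 share their probe sets with other genes and were not analysed here.

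Without rosiglitazone, 4-hydroxy-tamoxifen changed none of the 71 genes at the adjusted threshold, with 0 higher and 0 lower by limma. Over all genes, 2.13% were higher and 1.79% lower. The median log2 difference of the members was 0.047 (all genes 0.000), and their range was -0.23 to 0.21. The estimate was positive for 44 of the 71 members and for 10970 of all 22180 genes. An unadjusted p under 0.05 was found for 10 of the 71 members and for 3550 of all 22180 genes. With weights estimated for each array, Mrpl1, Mrpl16, Mrpl22, Mrpl51 and Mrps18a were higher and Mrps14 lower, and with a robust intensity trend Mrpl16 and Mrps18a were higher. Mrps18a, at 0.21 ± 0.06, was also called when 4OHT_Rosi 3 was left out (adjusted p = 0.0482). The 4OHT and EtOH arrays of Mrps27 and Mrps22, given above, overlapped, whereas every 4OHT array of Mrpl1 and Mrpl51 was above every EtOH array and every 4OHT array of Mrpl52 was below. The groups were also apart, with 4OHT higher, in Mrpl10, Mrpl16, Mrpl19, Mrpl22, Mrpl27, Mrpl35, Mrpl39, Mrpl47, Mrps16, Mrps18a and Mrps31. They were apart with 4OHT lower in Mrpl24 and Mrps14. How often this occurred over all genes was not counted.

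With rosiglitazone, 4-hydroxy-tamoxifen was followed by a few small changes in both directions. Of the 71 genes, 2 were higher (all genes 4.65%) and 5 were lower (all genes 3.38%). In the brightest of the level bins described above, which held 47 of the members, 9.92% of genes were higher and 6.37% lower. Neither count is therefore read as particular to these genes. The members' median log2 difference was -0.057 (all genes -0.007), and single genes ranged from -0.35 to 0.27. The falls were in Mrpl38, Mrpl45, Mrps23, Mrpl2 and Mrpl24, and the rises in Mrps22 and Mrpl20.

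Mrpl38, a protein of the central protuberance of the large subunit, showed the largest fall. It read 10.30, 10.19 and 10.10 in EtOH and 10.27, 10.26 and 10.12 in 4OHT, but 10.83, 10.89 and 11.01 in EtOH_Rosi and 10.49, 10.63 and 10.56 in 4OHT_Rosi. The first 2 groups overlapped fully, and with rosiglitazone every 4OHT array was below every EtOH array. The log2 difference was -0.35 ± 0.07 (adjusted p = 0.00931). Mrpl45, which anchors the ribosome to the inner membrane beside the exit of the new protein, read 8.60, 8.50 and 8.50 in EtOH, 8.59, 8.47 and 8.45 in 4OHT, 9.19, 9.30 and 9.26 in EtOH_Rosi, and 8.87, 8.97 and 8.98 in 4OHT_Rosi. It followed the same pattern, with a difference of -0.31 ± 0.06 (adjusted p = 0.00718). Both genes still rose with rosiglitazone after 4-hydroxy-tamoxifen, Mrpl38 by 0.34 ± 0.07 (adjusted p = 0.00318) and Mrpl45 by 0.44 ± 0.06 (adjusted p = 0.00014). These calls held when any single array was left out and under every other setting tried.

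Mrps23, a small subunit protein specific to mitochondria, read 9.86, 9.85 and 9.98 in EtOH_Rosi and 9.51, 9.63 and 9.67 in 4OHT_Rosi, a difference of -0.29 ± 0.06 (adjusted p = 0.0113). Mrpl2, which lies close to the peptidyl transferase centre, read 9.32, 9.34 and 9.45 against 9.08, 9.11 and 9.07, a difference of -0.28 ± 0.06 (adjusted p = 0.0115). Mrpl24, a protein at the rim of the exit tunnel, read 9.92, 10.06 and 10.12 against 9.80, 9.79 and 9.75, a difference of -0.25 ± 0.06 (adjusted p = 0.0245). In each of these genes the groups were apart, with all 4OHT_Rosi arrays the lower. For Mrps22 and Mrpl20, whose values are given above, the differences were 0.25 ± 0.06 (adjusted p = 0.0308) and 0.27 ± 0.07 (adjusted p = 0.0281).

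Each of these last calls was lost in at least 1 fit that left out a single array, with the estimate in the same direction. Without EtOH_Rosi 3 the adjusted p was 0.0516 for Mrps23, 0.0522 for Mrpl2, 0.0968 for Mrpl24, 0.0882 for Mrpl20 and 0.11 for Mrps22. The call of Mrpl20 was also lost without EtOH_Rosi 1 (0.0777), 4OHT_Rosi 1 (0.077) or 4OHT_Rosi 3 (0.0874), and that of Mrps22 without EtOH_Rosi 2 (0.0887), 4OHT_Rosi 1 (0.101) or 4OHT_Rosi 2 (0.0531). That of Mrpl24 was lost without EtOH_Rosi 2 (0.0849), 4OHT_Rosi 2 (0.056) or 4OHT_Rosi 3 (0.0735). Fitted on the 2 groups alone, the comparison called 0 members higher and 2 lower, Mrpl38 and Mrpl45.

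**Figure D4:**
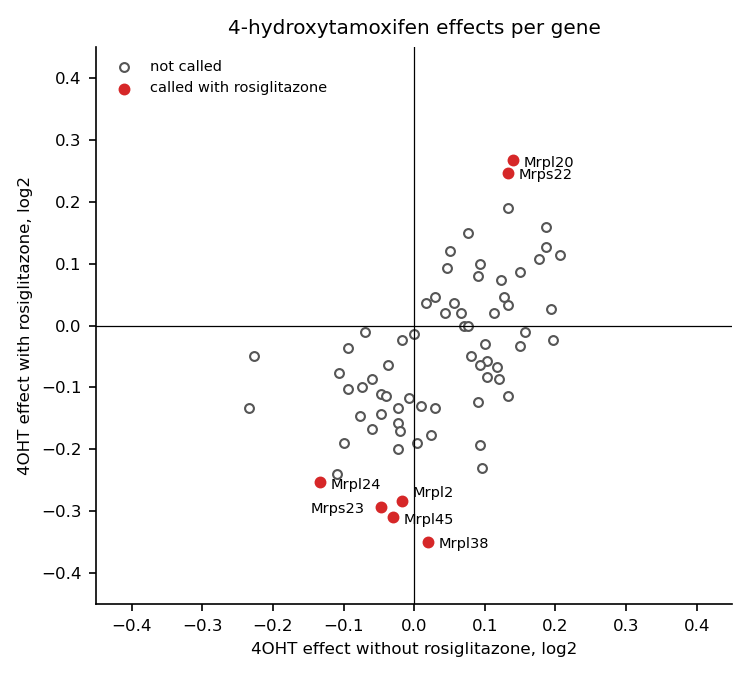
Each point is 1 of the 71 mitochondrial ribosomal protein genes, with its log2 difference of 4-hydroxy-tamoxifen against ethanol without rosiglitazone on the x axis and with rosiglitazone on the y axis. The 7 filled points are called with rosiglitazone, none is called without it, and the points lie between -0.35 and 0.27 on both axes.

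Whether 4-hydroxy-tamoxifen altered the response to rosiglitazone was tested directly as an interaction. No member was called in either direction by limma (0 higher and 0 lower, against 0.523% and 0.482% of all genes), and an unadjusted p under 0.05 was found for 9 of the 71 members and for 3106 of all 22180 genes. The point estimate of the rise was larger after ethanol in 57 of the 71 genes, and the median interaction was -0.090 (all genes -0.003). The interaction estimate was positive for 14 of the 71 genes and for 10736 of all 22180 genes. The smallest p-values were those of Mrpl38 (log2 difference of the 2 effects -0.37 ± 0.10, adjusted p = 0.116), Mrps16 (-0.33 ± 0.10, adjusted p = 0.149) and Mrpl45 (-0.28 ± 0.09, adjusted p = 0.157). Mrps16 read 7.88, 7.93 and 7.92 in EtOH and 8.21, 8.46 and 8.46 in EtOH_Rosi, and 7.97, 8.06 and 7.99 in 4OHT and 8.19, 8.17 and 8.08 in 4OHT_Rosi. Its values separated with rosiglitazone in both settings, but after 4-hydroxy-tamoxifen the nearest arrays were 8.06 and 8.08. That rise of 0.14 ± 0.07 was not called (adjusted p = 0.189). The interaction of its second probe set was -0.21 ± 0.16 (adjusted p = 0.61 over all probe sets of a single gene). The 95% interval of the interaction ran from -0.59 to -0.15 for Mrpl38, so the missed threshold does not show that the 2 responses were equal. Under a robust intensity trend Mrpl38 was called (adjusted p = 0.048), and without EtOH_Rosi 1 Mrps16 was (adjusted p = 0.034).

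Most genes in the other lists of mitochondrial protein synthesis that were called with rosiglitazone were called higher. Of 3 measured proteins of the mitochondrial ribosome that carry other symbols, 2 rose in both settings. Ptcd3, a pentatricopeptide repeat protein of the small subunit, rose by 0.82 ± 0.05 (adjusted p = 1.73e-07) and 0.58 ± 0.05 (adjusted p = 4.47e-06), and was also higher after 4-hydroxy-tamoxifen without rosiglitazone (0.22 ± 0.05, adjusted p = 0.0378). Gadd45gip1, a large subunit protein, rose by 0.22 (adjusted p = 0.0123) and 0.20 (adjusted p = 0.0327). Dap3, a GTP-binding protein of the small subunit, differed by 0.14 (adjusted p = 0.1) and 0.12 (adjusted p = 0.184). Of 24 factors that assemble the ribosome or modify its RNA, 15 rose and none fell in each setting. Ddx28, an RNA helicase needed for the large subunit, rose by 1.03 ± 0.08 (adjusted p = 6.27e-07) and 1.12 ± 0.08 (adjusted p = 4.28e-07). With the array 4OHT_Rosi 3 left out, 9 assembly factors were called after 4-hydroxy-tamoxifen, and 1 of the 3 proteins with other symbols.

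Of 15 measured translation factors, 11 rose after ethanol (median log2 fold change 0.627) and 12 after 4-hydroxy-tamoxifen (0.460), and none fell. Tufm, the elongation factor that brings tRNA to the ribosome, rose by 0.68 ± 0.06 (adjusted p = 1.14e-06) and 0.46 ± 0.06 (adjusted p = 4.85e-05). Taco1, an activator of the translation of a cytochrome oxidase subunit, rose by 0.87 (adjusted p = 9.97e-07) and 0.57 (adjusted p = 5.75e-05). Of 19 measured genes that charge mitochondrial tRNAs, 16 and 14 rose and none fell (medians 0.470 and 0.283), among them Hars2, the histidyl-tRNA synthetase, by 0.80 (adjusted p = 9.67e-06) and 0.40 (adjusted p = 0.00427). Of 20 measured genes for replicating and transcribing mitochondrial DNA and processing its RNA, 16 rose and 1 fell after ethanol, and 12 rose and 1 fell after 4-hydroxy-tamoxifen. The gene that fell after ethanol was Rexo2, an oligoribonuclease (log2 -0.23, adjusted p = 0.00668), and that after 4-hydroxy-tamoxifen was Mterf1a, a termination factor of mitochondrial transcription (-0.42 ± 0.13, adjusted p = 0.0324), which was not called without the array 4OHT_Rosi 3.

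With rosiglitazone present, 4-hydroxy-tamoxifen was followed by lower levels of a few genes in these lists. Vars2, the valyl-tRNA synthetase, read 8.11, 8.44 and 8.40 in EtOH_Rosi and 7.96, 7.81 and 7.98 in 4OHT_Rosi, a log2 difference of -0.40 ± 0.08 (adjusted p = 0.00978). Tfb2m, a transcription initiation factor of mitochondrial DNA, read 9.79, 9.76 and 9.74 against 9.43, 9.41 and 9.19 (-0.42 ± 0.09, adjusted p = 0.0099). In both genes the groups were apart. Pars2, the prolyl-tRNA synthetase, differed by -0.26 ± 0.06 (adjusted p = 0.0131), Supv3l1, an RNA helicase, by -0.26 ± 0.06 (adjusted p = 0.0174) and Taco1 by -0.26 ± 0.07 (adjusted p = 0.0409). Higher were Rexo2 (0.36, adjusted p = 0.00173), Ddx28 (0.35, adjusted p = 0.0169), the pseudouridine synthase gene Trub2 (0.25, adjusted p = 0.036) and Pnpt1, the mitochondrial polynucleotide phosphorylase (0.33, adjusted p = 0.00555). Pnpt1 was also higher without rosiglitazone, by 0.43 ± 0.06 (adjusted p = 0.00154). Without the array 4OHT_Rosi 3, the calls of Ddx28, Trub2 and Taco1 were lost.

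The products of mitochondrial translation meet nuclear-encoded partners in the respiratory chain, and those partner genes moved with the ribosomal ones. Of 78 respiratory chain genes, 70 rose after ethanol (median log2 fold change 0.560) and 59 after 4-hydroxy-tamoxifen (0.358), and none fell. With rosiglitazone present, 7 of the 78 were lower after 4-hydroxy-tamoxifen (all genes 3.38%, brightest level bin 6.37%). None was higher (all genes 4.65%, brightest level bin 9.92%). The counts were not tested against these shares. Of those 7, Cox8b, a cytochrome oxidase subunit typical of brown fat and muscle, was lower by a log2 difference of -1.33 (adjusted p = 9.09e-05), and Cox7a1, another such subunit, by -0.79 (adjusted p = 0.00135). The interaction was called for Cox8b (-1.30, adjusted p = 0.0123) and Ndufs8, a complex I subunit (-0.42, adjusted p = 0.0379), and for no member of the ribosomal set. Over all genes, 0.482% were called in that direction. Without the array 4OHT_Rosi 3, 4 of the 78 were lower and 1 interaction was called.

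Genes for proteins of the cytosolic ribosome were called mainly in the other direction. Of 57 measured genes, 36 were lower and 1 higher with rosiglitazone after ethanol (median log2 fold change -0.260), and 19 were lower and 1 higher after 4-hydroxy-tamoxifen (-0.150). Rpl13, of the large cytosolic subunit, read 10.15, 10.27 and 10.24 in EtOH and 9.63, 9.67 and 9.65 in EtOH_Rosi, a difference of -0.57 ± 0.07 (adjusted p = 1.53e-05). The 2 groups were far apart, and after 4-hydroxy-tamoxifen the difference was -0.38 ± 0.07 (adjusted p = 0.00078). The 1 gene that was higher was Rplp2, a stalk protein (0.19, adjusted p = 0.0437, and 0.21, adjusted p = 0.0292). Without rosiglitazone, 7 of the 57 were lower after 4-hydroxy-tamoxifen, against 1.79% of all genes. With a share that small, the 0 of 71 mitochondrial ones is not read as a contrast. Of the 57, 12 were lower when 4OHT_Rosi 3 was left out of the shared estimate of spread.

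**Figure D5:**
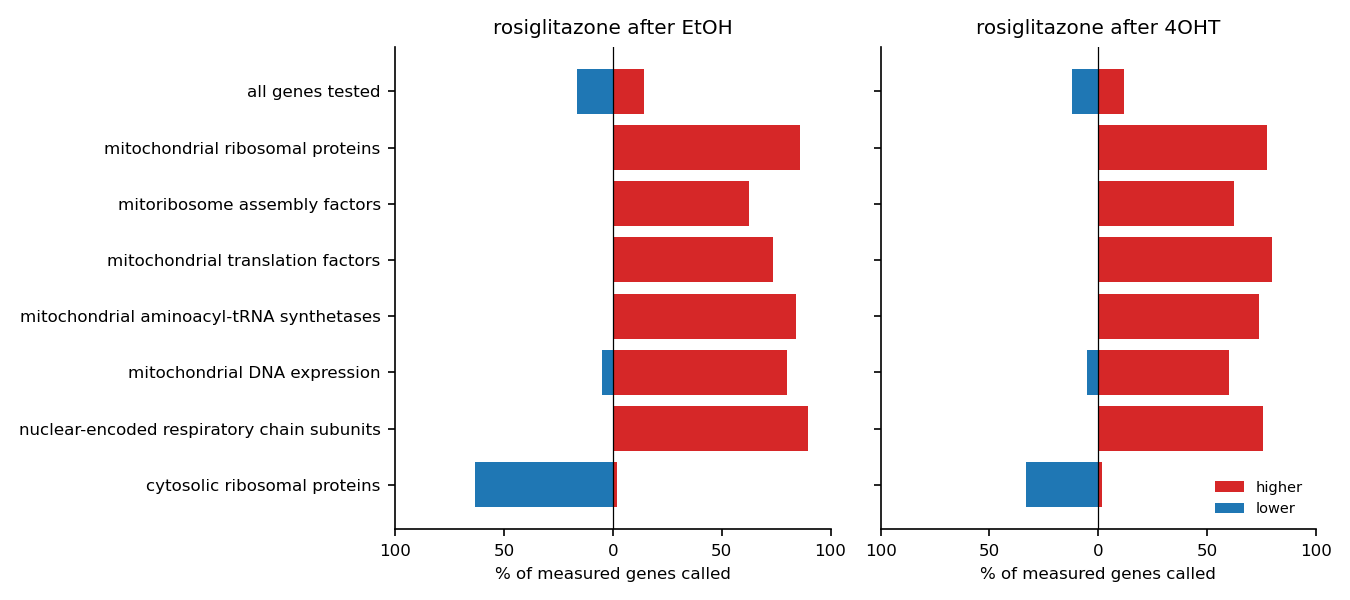
Percentage of measured genes called higher (red, to the right) or lower (blue, to the left) with rosiglitazone at adjusted p under 0.05, after ethanol (left panel) and after 4-hydroxy-tamoxifen (right panel), for 7 gene lists and for all genes tested. The mitochondrial lists lie almost wholly to the right, with 61 of 71 mitochondrial ribosomal protein genes higher after ethanol, and the cytosolic ribosomal proteins mostly to the left.

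Of 12 genes for regulators of mitochondrial biogenesis, 6 were higher and 2 lower with rosiglitazone after ethanol, and 5 were higher and 1 lower after 4-hydroxy-tamoxifen. The coactivators Ppargc1a and Ppargc1b rose by 1.73 ± 0.13 (adjusted p = 4.55e-07) and 1.72 ± 0.09 (adjusted p = 2.55e-08) with rosiglitazone after ethanol, and by 1.55 (adjusted p = 1.63e-06) and 1.38 (adjusted p = 1.79e-07) after 4-hydroxy-tamoxifen. Esrra, an orphan nuclear receptor of the ERR family, rose by 0.47 (adjusted p = 0.000202) and 0.50 (adjusted p = 0.000204). Gabpa, the ETS factor, rose by 0.48 (adjusted p = 3.31e-05) and 0.44 (adjusted p = 0.000128), from 8.88, 8.86 and 8.81 in EtOH to 9.41, 9.31 and 9.28 in EtOH_Rosi. Tfam, which packages mitochondrial DNA and starts its transcription, belongs to the mitochondrial DNA list and rose by 0.43 (adjusted p = 0.00133) and 0.39 (adjusted p = 0.0039). Nrf1, the factor that binds the NRF1 letters, read 7.58, 7.82 and 7.78 in EtOH and 7.70, 7.76 and 7.72 in EtOH_Rosi, and its groups overlapped (0.00 ± 0.07, adjusted p = 1, and -0.10 ± 0.07, adjusted p = 0.339). Neither Yy1, the factor of the YY1 letters (0.03 ± 0.05, adjusted p = 0.78, and -0.03 ± 0.05, adjusted p = 0.739), nor Gabpb1, the partner subunit of GABPA (-0.12 ± 0.06, adjusted p = 0.18, and -0.09 ± 0.06, adjusted p = 0.361), was called. Myc, which drives cytosolic ribosome production, was lower in both settings, with a log2 difference of -0.26 in each (adjusted p = 0.0219 and 0.0287).

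Markers of other cell types moved with rosiglitazone too. The log2 of the summed level of 4 adipose progenitor markers lay between 13.33 and 13.42 in EtOH and between 12.09 and 12.23 in EtOH_Rosi, and between 12.96 and 13.02 in 4OHT and between 11.9 and 12.3 in 4OHT_Rosi, with 3 of the 4 genes lower in each setting. That of 4 smooth muscle markers went from 13.21 to 13.39 in EtOH to 11.99 to 12.46 in EtOH_Rosi, and from 13.27 to 13.32 in 4OHT to 12.57 to 13.02 in 4OHT_Rosi. All 4 smooth muscle markers were lower after ethanol and 3 after 4-hydroxy-tamoxifen. Of 6 macrophage and leukocyte markers, 5 and 3 were lower (sums of 12.82 to 12.97 in EtOH, 12.32 to 12.45 in EtOH_Rosi, 12.65 to 12.79 in 4OHT and 12.3 to 12.36 in 4OHT_Rosi). Of 4 endothelial markers, 4 and 3 were lower (12.19 to 12.43, 11.51 to 11.66, 12.14 to 12.24 and 11.47 to 11.8 in the same order). Of 8 adipocyte markers, 4 were higher and 1 lower after ethanol, and 3 were higher and 1 lower after 4-hydroxy-tamoxifen. The log2 of their summed level was between 15.4 and 15.49 in the arrays without rosiglitazone and between 15.61 and 15.7 in those with it. Such sums weigh the brightest probe sets most and, without detection calls, do not show that each marker was present. Fewer cells of a type and less RNA per cell cannot be told apart in these bulk samples. The part of these shifts in the rise of the ribosomal protein genes was not tested.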

How the data were processed

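The labels assign 3 arrays to each of the groups EtOH, 4OHT, EtOH_Rosi and 4OHT_Rosi. The log2 values were deposited by the authors as a table of 41345 probe sets by 12 arrays, made with Affymetrix Expression Console per the submitters' processing notes. Neither the software version nor the normalization step is given in the sources used here. Values ran from 3.05 to 13.91 with 0 missing. Array number limits the precision, and no detection calls were used here.

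Of the probe sets, 16010 had no gene listed (190 of them controls), 1814 several symbols and 23521 one; 23328 of the last were matched to RefSeq (GRCm38.p6) for current names and 193 kept the annotation's. The brightest probe set per gene gave 22180 genes. Limma 3.58.1 in R 4.3.3 (lmFit and eBayes) fitted 1 mean per group, with 8 residual and 5.07 prior degrees of freedom, and Benjamini-Hochberg adjustment within each of 5 comparisons. The fit was run on simulated arrays with noise drawn separately for each gene and changes added to 4OHT_Rosi alone. That check does not cover genes that vary together.

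Named genes were the 4 largest called rises and falls per comparison, the 3 smallest interaction p-values, members with known special roles, and up to 3 called genes per other list; Mrpl52, Mrps14, Mrps21, Mrpl27, Mrpl47, Yy1, Gabpb1, Mterf1a, Mrpl10, Mrpl11, Mrpl9, Mrpl16, Mrpl22, Mrpl24, Dap3 and the members listed by their side of the threshold were named after their values were seen. Mrpl19, Mrpl35, Mrpl39 and Mrps31 were also named after their values were seen. The members and lists were chosen with earlier results of these data known. Alternatives were an intensity trend, array weights, quantile normalization, median centring, a filter on dim genes, averaging the probe sets of a gene, a fit of the compared groups alone, a replicate block and leaving out each array. Arrays sharing a replicate number did not deviate together (correlations -0.24 to 0.0788), so the number was not taken as a pairing.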

Additional observations from a re-analysis of the deposited data

How the results depend on the processing

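The direction of every member call was the same under each setting tried, and 100 of the 123 calls passed the threshold in all of them, 54 of 61 for rosiglitazone after ethanol, 44 of 55 after 4-hydroxy-tamoxifen and 2 of 7 for 4-hydroxy-tamoxifen with rosiglitazone. Leaving out 1 array at a time gave 54 to 62 rises after ethanol and 47 to 57 after 4-hydroxy-tamoxifen, and the median log2 rise after ethanol ran from 0.355 to 0.452. The effect of 4-hydroxy-tamoxifen without rosiglitazone went from 0 higher and 0 lower to 5 and 1 with array weights, 2 higher with a robust intensity trend, and 0 to 1 higher without single arrays. With rosiglitazone, the 2 higher became 1 with array weights and 0 when only the groups compared were fitted (0 to 2 without single arrays), and the 5 lower became 2 (2 to 6 without single arrays) or, with quantile normalization, 7, with Mrpl34 and Mrpl9 added. Without EtOH_Rosi 3 the counts were 0 higher and 2 lower, and without 4OHT_Rosi 1, 0 higher. One gene, Mrpl52, became lower with rosiglitazone after ethanol when only the groups compared were fitted (1, and 0 to 1 without single arrays), and for the interaction 1 became lower with the robust trend (0 to 1 without single arrays). The cause was not tested. With a replicate block the counts were 60 and 53 rises with rosiglitazone, 0 and 0 for 4-hydroxy-tamoxifen without rosiglitazone, 2 higher and 4 lower with it, and 0 for the interaction. The calls lost there were those of Mrpl24 (adjusted p = 0.054), Mrpl14 after ethanol (0.061), and Mrpl49 (0.052) and Mrps10 (0.0629) after 4-hydroxy-tamoxifen.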

Other observations

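The nuclear receptor gene Ppara and the coactivator gene Pprc1, both in the list of regulators, had other patterns than most ribosomal protein genes. Ppara, whose product responds to fatty acids, read 7.20, 7.08 and 7.02 in EtOH, 7.64, 7.37 and 7.48 in 4OHT, 9.91, 9.99 and 10.03 in EtOH_Rosi, and 9.66, 9.43 and 9.38 in 4OHT_Rosi. It rose with rosiglitazone by 2.88 ± 0.09 on the log2 scale after ethanol (adjusted p = 2.47e-10) and by 1.99 ± 0.09 after 4-hydroxy-tamoxifen (adjusted p = 6.26e-09), and the difference of the effects was called (-0.88 ± 0.12, adjusted p = 0.00776), which was so for none of the 71 genes. Pprc1, a relative of Ppargc1a, was lower with rosiglitazone after ethanol (-0.44 ± 0.08, adjusted p = 0.000986) and differed by 0.01 ± 0.08 after 4-hydroxy-tamoxifen (adjusted p = 0.97), an interaction of 0.45 ± 0.12 that was not called (adjusted p = 0.104).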
